A study of Mus musculus with 24 samples.

Results

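The 41 genes described here make, desaturate, move and sense sterols and fatty acids. They were chosen by name, with earlier results of these data known. Listed genes of sterol synthesis, fatty acid synthesis and desaturation, and the SREBP pathway were looked up by symbol in the count files. All 41 were found among the 24421 genes counted. Of these, 29 form a sterol arm (18 enzymes of sterol synthesis, 5 genes of sterol sensing and transcription, and 6 of sterol transport and esterification) and 12 form a fatty acid arm. RNA was sequenced from T cells that had been sorted as positive for CD45, CD3 and CD8 from the pancreas or the blood of KC mice and of WT B6 mice. The 24 libraries comprised 12 of KC pancreas and 9 of KC blood, beside 2 of WT pancreas and 1 of WT blood. KC libraries of both tissues came from mice aged 4, 9, 13, 20 and 30 weeks, WT pancreas from 9 and 30 weeks (1 library each), and WT blood from 30 weeks. KC mice are a model in which the pancreas develops precursor lesions of pancreatic cancer. The alleles, the Cre driver and the number of mice per library are not given in the sources used here.

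Sterols are built from acetyl-CoA through mevalonate, farnesyl diphosphate and squalene, and the first sterol, lanosterol, is trimmed in many steps to cholesterol. Fatty acids are built from the same acetyl-CoA by carboxylation and chain extension, then lengthened by elongases and unsaturated by desaturases. Both arms are controlled by the SREBP transcription factors, which Scap carries out of the endoplasmic reticulum when sterols are low and which the Insig proteins hold back when sterols are high. Activated CD8 T cells are known to turn this programme on as they grow and divide.

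SREBPs bind sterol regulatory elements and usually act together with NF-Y, a factor that binds CCAAT. The promoter table from RefSeq (GRCm38.p6, 250 bases before to 50 after each start) held 32 of the 41 genes. CCAAT was found on either strand for 14 of 15 sterol synthesis enzymes (93.3%), for 6 of 9 fatty acid genes (66.7%), and for 41.1% of all 27025 genes in the table. Counted per promoter, since some genes have several, it was in 14 of 18 promoters of the sterol enzymes (77.8%) and in 37.4% of all promoters. The sterol regulatory element letters TCACCCCAC were found on either strand for Hmgcs1 alone, 1 of 32 members (3.13%), against 0.614% of all genes, and the shorter CACCCCAC within it for Hmgcs1 and Acat2 (6.25% against 3.30%). The E-box CACGTG, which SREBPs also bind, was found for 7 of 32 members (21.9%) and 8.09% of all genes. The windows below belong to members whose levels are given later. Each is on the strand of its gene, ends before the start of the gene in RefSeq and in GENCODE, and has the match in capitals (CCAAT reads as ATTGG on the other strand). They were picked among genes with a match. Apart from Hmgcs1, they show the same short word at offsets of -62 to -20 bases from the start for the sterol enzymes and fatty acid genes. For the regulators Srebf2 and Insig1 it lay farther off, at -135 and -216. Each CCAAT window shows the match nearest to the start among those before it. Distance did not divide the roles among genes not printed. The regulator Insig2 had its nearest match at -29, the enzyme Pmvk at -136 and Me1 of the fatty acid arm at -208.
Hmgcs1, sterol regulatory element core, chr13:119690195-119690242, plus strand: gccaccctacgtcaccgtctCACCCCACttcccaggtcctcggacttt
Ebp, CCAAT, chrX:8193543-8193587, minus strand: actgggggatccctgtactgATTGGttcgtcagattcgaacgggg
Nsdhl, CCAAT, chrX:72918481-72918520, plus strand: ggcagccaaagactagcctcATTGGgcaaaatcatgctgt
Lss, CCAAT, chr10:76531523-76531567, plus strand: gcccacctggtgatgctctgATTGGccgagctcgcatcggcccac
Srebf2, CCAAT, chr15:82147114-82147158, plus strand: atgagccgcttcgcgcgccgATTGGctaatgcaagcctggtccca
Insig1, CCAAT, chr5:28071176-28071220, plus strand: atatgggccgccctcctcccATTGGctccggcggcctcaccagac
Fasn, CCAAT, chr11:120824582-120824626, minus strand: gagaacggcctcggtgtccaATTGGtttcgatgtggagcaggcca
Elovl1, CCAAT, chr4:118428038-118428082, plus strand: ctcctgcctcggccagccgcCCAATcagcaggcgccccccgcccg
A match is a description of these letters and was not tested for binding.

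The deposited counts summed to 6352070 to 16716169 per library in genes. Levels are given as CPM, counts per 1000000 counts in genes. T cell markers were abundant: Cd3e and Cd8a were at 1 CPM or more in 24 of 24 libraries. So were the helper T cell genes Cd4, Foxp3 and Cd40lg, at lower levels. Median Cd4 was 34.3 CPM in KC pancreas and 28.0 CPM in KC blood, beside 1277 and 1094 CPM for Cd8a. Macrophage and monocyte markers summed to 2.10 to 313 CPM in KC pancreas and 2.95 to 413 CPM in KC blood. The purity of the sort was not tested. Nothing in the labels says that libraries came from separate mice, so p-values measure the spread between these libraries. A second structure ran through the libraries. Genes that were high in 1 library were seen at low level in some others, with a median of 0.205% of that high level within a set, and these low levels divided the libraries into 2 sets of 12. Set 1 held KC pancreas of 4 and 13 weeks, the 3 WT libraries and 3 of KC blood (Sample_131B8, Sample_42B8 and Sample_43B8), and set 2 held the rest. Age and set overlap: all 5 KC libraries of 4 weeks lay in set 1 and all 4 of 30 weeks in set 2. The labels name no batch, and what the sets are (a shared run, carry-over of RNA or reads, or something else) is not known. Values within the sets are given below for the members nearest to a difference. In bulk RNA of this kind, fewer cells that express a gene and less RNA per cell cannot be told apart.

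Most of the 41 genes were present at low and uneven levels. At least 1 count was found in all 24 libraries for 30 members. A single count is weak evidence of expression here. Of the genes that defined the sets, a mean of 91.8% had a count in another library of the same set and 48.4% in a library of the other set. The sets were drawn to make this contrast large, so the contrast itself is no test. Only 10 members were at 1 CPM or more in every library, and only Npc2 and Elovl5 were at 10 CPM or more in every library. Mvk (mevalonate kinase), Tm7sf2 (a sterol reductase), Me1 (malic enzyme) and Fads2 (a fatty acid desaturase) never reached 10 CPM. Levels between libraries varied about as much as those of other genes. For the 31 members with a mean of 5 to 500 CPM the median coefficient of variation over the 24 libraries was 127%, and for all 8242 genes in that range it was 124%.

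**Figure D1:**
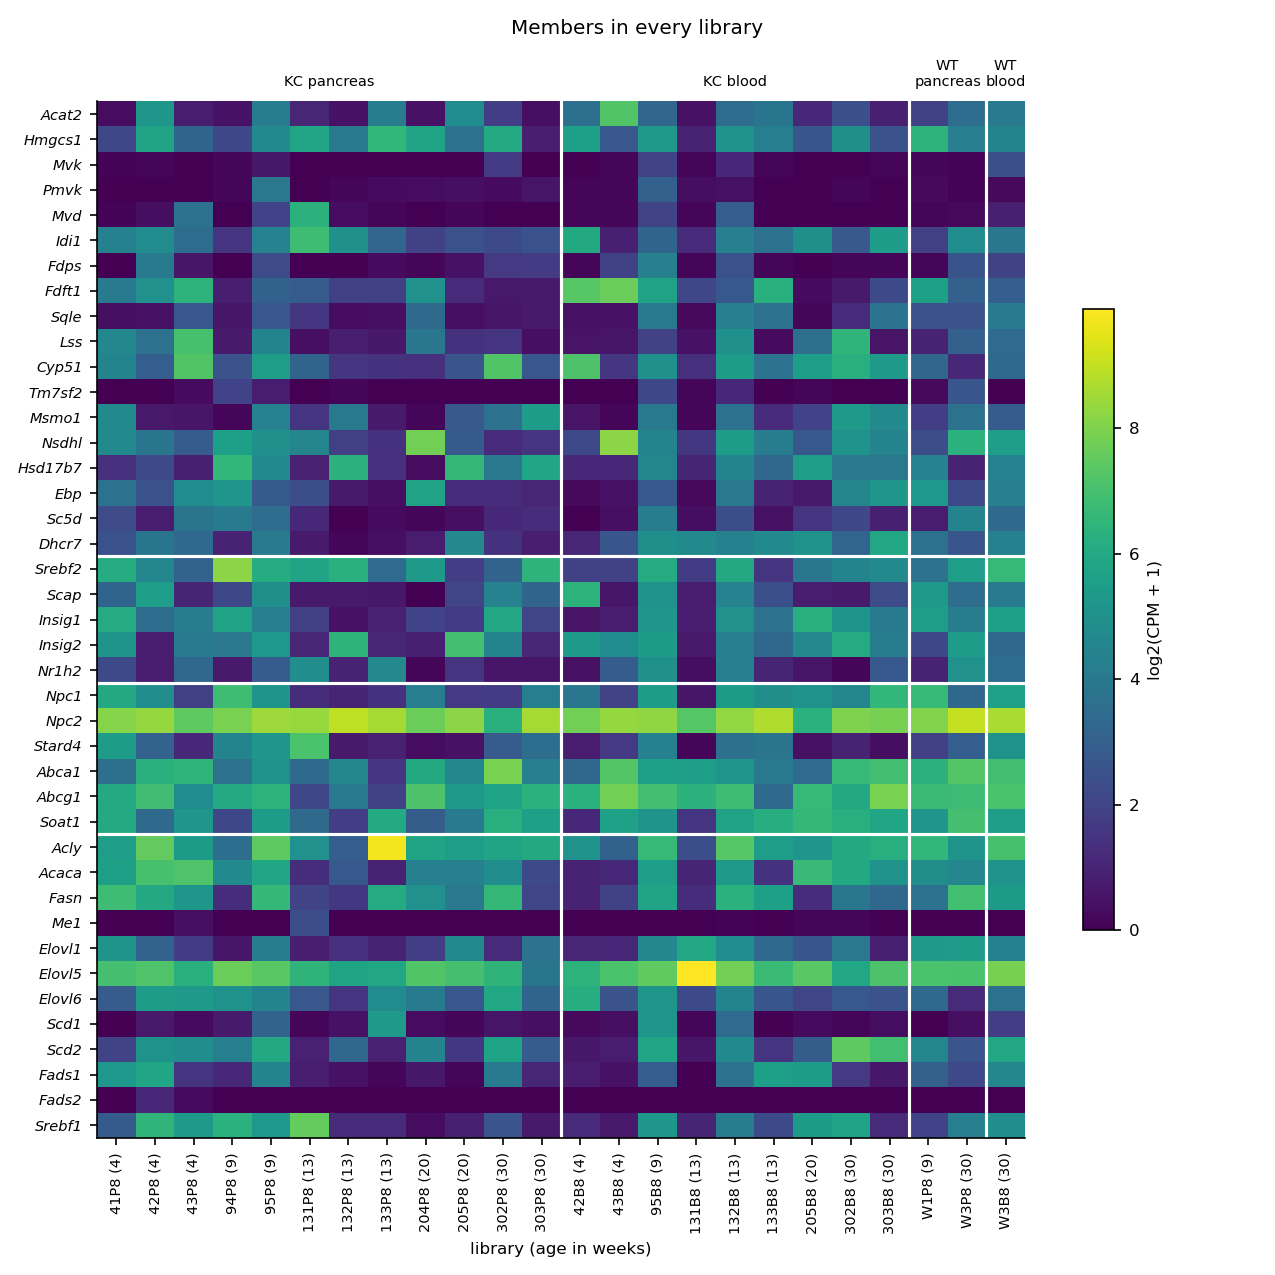
Level of each of the 41 genes in each of the 24 libraries, as log2(CPM + 1) in colour, with genes in rows by role and libraries in columns by group and age in weeks. Npc2 and Elovl5 are at 10 CPM or more in every column, and most other rows switch between high and low from library to library within a group.

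Libraries with more genes detected also had more of the 41. The 4 libraries with the most genes at 1 CPM or more (Sample_95B8, Sample_95P8, Sample_132B8 and Sample_W3B8, with 10218 to 11054 genes) had 27 to 32 members at 10 CPM or more, and the other 20 (6069 to 9007 genes) had 6 to 23. In all of those 4 libraries 35 members were at 1 CPM or more and 21 at 10 CPM or more. The 4 came from KC blood, KC pancreas and WT blood. They were picked by how many genes they held, so this is a description with no test.

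**Figure D2:**
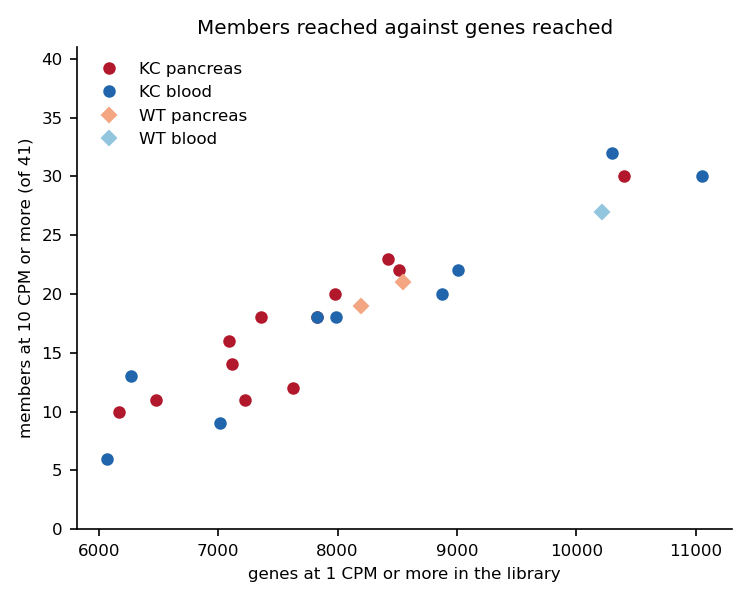
Number of the 41 genes at 10 CPM or more (vertical axis) against the number of all genes at 1 CPM or more (horizontal axis), with 1 point per library and the 4 groups marked. The points climb together from 6 members in the library with 6069 genes to 30 members in the library with 11054 genes, and the groups are mixed along the way.

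Among the 3 most abundant enzymes of sterol synthesis, Nsdhl, which removes methyl groups from sterols, had 1.30, 9.98 and 219 CPM as lowest, median and highest in KC pancreas and 2.03, 20.7 and 286 CPM in KC blood. The WT pancreas libraries had 4.08 CPM at 9 weeks and 78.7 CPM at 30 weeks, and WT blood 44.1 CPM. The groups overlapped, and a single library stood far above the rest in each KC tissue (Sample_204P8 and Sample_43B8). Cyp51, the lanosterol demethylase, had 1.5, 6.14 and 149 CPM in KC pancreas and 1.53, 39.1 and 140 CPM in KC blood. It had 8.64 and 1.20 CPM in WT pancreas and 9.33 CPM in WT blood. High Cyp51 was seen in 4-week libraries of both tissues (Sample_43P8 and Sample_42B8) and in a 30-week pancreas library (Sample_302P8), so the groups overlapped again. Fdft1, squalene synthase, had 0.589, 4.56 and 84.2 CPM in KC pancreas and 0.237, 5.54 and 198 CPM in KC blood; its ages are described below. Of the other enzymes, Hmgcs1, which makes HMG-CoA, ranged from 0.787 to 94.4 CPM over all libraries and was at 10 CPM or more in 16. Hsd17b7 and Idi1 reached 10 CPM in 13 libraries each, Dhcr7 in 11, Acat2 and Msmo1 in 10, Ebp in 9, Lss in 8, Sqle and Sc5d in 5, Mvd and Fdps in 2 and Pmvk in 1.

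In the sensing group, Srebf2, the SREBP that drives sterol genes, had 2.47, 46.9 and 290 CPM in KC pancreas and 1.85, 13.9 and 67.9 CPM in KC blood. WT pancreas had 12.3 and 44.4 CPM and WT blood 98.2 CPM. Its highest library was a 9-week pancreas library, and the tissues overlapped. Insig2, an SREBP retention protein, had 0.687, 15.2 and 122 CPM in KC pancreas and 0.610, 24.3 and 67.0 CPM in KC blood. It had 3.42 and 43.6 CPM in WT pancreas and 9.15 CPM in WT blood. Insig1, the other retention protein and itself a target of SREBPs, had 0.388, 6.77 and 67.0 CPM in KC pancreas and 0.455, 16.1 and 74.3 CPM in KC blood. Its WT values were 45.1 and 17.0 CPM in pancreas and 47.5 CPM in blood. Both Insig genes ran from below 1 CPM to 67.0 CPM or more inside each KC tissue. Scap, the SREBP escort, reached 10 CPM in 9 libraries with a maximum of 82.8 CPM, and the oxysterol receptor gene Nr1h2 in 6 libraries with a maximum of 31.4 CPM.

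The summed transport genes varied least between libraries relative to their mean. Npc2 was the largest part of that sum on average, with a mean of 292 CPM of 478 CPM in KC pancreas. The other transport genes had coefficients of variation from 70.0% (Abcg1) to 194% (Stard4) over the 24 libraries. Npc2, which hands cholesterol out of the lysosome, had 76.8, 304 and 498 CPM in KC pancreas and 79.1, 252 and 424 CPM in KC blood. It had 258 and 517 CPM in WT pancreas and 399 CPM in WT blood. Its coefficient of variation of 38.6% was the lowest of the 31 members compared above. Per kilobase of annotated exon it was also the highest of the 41, with a median of 55.1 CPM per kilobase, ahead of Elovl5 (38.2), Abcg1 (11) and Acly (9.28); the libraries of each gene in that order overlapped those of the next. Abcg1, a sterol exporter, had 2.82, 58.7 and 140 CPM in KC pancreas and 9.5, 97.1 and 238 CPM in KC blood, with 107 and 108 CPM in WT pancreas and 134 CPM in WT blood. Abca1, the exporter that loads cholesterol onto lipoproteins, had 1.95, 23.1 and 237 CPM in KC pancreas and 9.00, 46.4 and 152 CPM in KC blood, with 80.6 and 152 CPM in WT pancreas and 117 CPM in WT blood. For both exporters the lowest library was the 13-week pancreas library Sample_133P8, and the tissues overlapped. Soat1, which esterifies cholesterol, and Npc1, the membrane partner of Npc2, reached 10 CPM in 17 and 15 libraries, and the sterol carrier gene Stard4 in 9.

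In the fatty acid arm, Elovl5, an elongase of polyunsaturated fatty acids, had 13.4, 106 and 204.9 CPM in KC pancreas and 59.3, 140 and 957 CPM in KC blood. It had 136 and 133.4 CPM in WT pancreas and 234 CPM in WT blood. The value of 957 CPM was in 1 library (Sample_131B8), and the other 8 KC blood libraries lay between 59.3 and 228 CPM. Acly, which makes cytosolic acetyl-CoA for both arms, had 6.85, 48.8 and 845 CPM in KC pancreas and 4.27, 44.5 and 161 CPM in KC blood, with 92.9 and 34.1 CPM in WT pancreas and 128 CPM in WT blood. Its top value was also in 1 library, Sample_133P8. Fasn, fatty acid synthase, had 1.45, 34.0 and 111 CPM in KC pancreas and 1.0, 9.04 and 79.8 CPM in KC blood, with 12.2 and 119 CPM in WT pancreas and 40.7 CPM in WT blood. Acaca, the acetyl-CoA carboxylase before Fasn, reached 10 CPM in 16 libraries. The desaturase gene Scd2 did so in 12, and Elovl1, Elovl6 and the fatty acid SREBP gene Srebf1 in 11 each. The desaturase genes Fads1 and Scd1 did so in 8 and 3.

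Summed by role, the sterol enzymes came to 237 ± 103 CPM in KC pancreas (SD, n = 12) and 298 ± 172 CPM in KC blood (SD, n = 9). The sensing group came to 125 ± 87.9 and 95.4 ± 65.6 CPM, the transport group to 478 ± 76.8 and 515 ± 174 CPM, and the fatty acid arm to 425 ± 273 and 452 ± 267 CPM, in the same order. Each of the 4 differences was smaller than the SD within either tissue. WT pancreas had sums of 230 and 209 CPM for the sterol enzymes and 352 and 381 CPM for the fatty acid arm, inside the KC range. Its transport sums were 581 and 920 CPM, the lower of them barely above the highest KC pancreas library (580 CPM). KC blood reached 747 CPM. Both WT pancreas libraries lay in set 1, and how often sums of other genes separate these libraries was not counted.

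**Figure D3:**
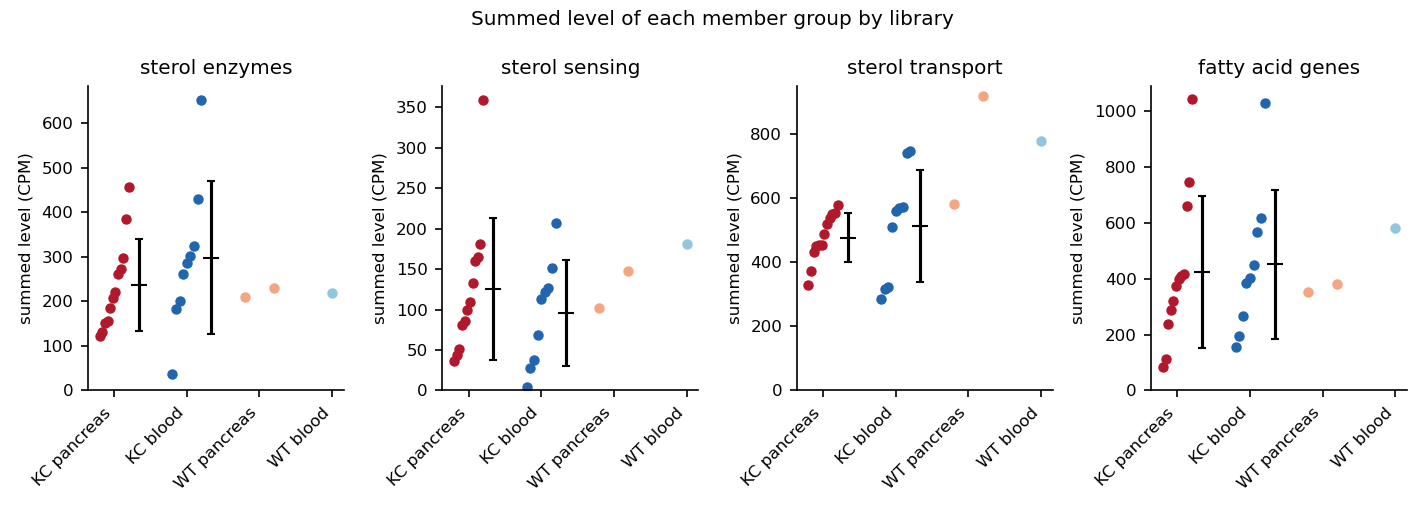
Summed level in CPM of the 4 groups of members (18 sterol enzymes, 5 sensing genes, 6 transport genes, 12 fatty acid genes), with 1 point per library by group and, beside the KC groups, the mean and SD (n = 12 and 9). KC pancreas and KC blood overlap in all 4 panels, and the transport panel has the narrowest spread relative to its mean. Npc2 had the highest mean of the 6 transport genes.

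Pancreas was then compared with blood in the 21 KC libraries, with age as a term, to ask whether CD8 T cells in the diseased organ differ in these genes. No member was called. Of the 41, 38 had enough counts to be tested (Pmvk, Me1 and Fads2 did not), 0 of 38 were called at an adjusted p below 0.05, and edgeR called 0.0904% of all 11059 genes. At an unadjusted p below 0.05 there were 4 of 38 members, 2 in each direction, against 9.85% of all genes. Among the tested members 16 had positive fold changes (higher in pancreas) and the median was -0.23, beside -0.12 for all genes on the log2 scale. Positive fold changes made up 42.1% of members and 45.4% of all genes. By role, 5 of 17 sterol enzymes, 3 of 5 sensing genes, 2 of 6 transport genes and 6 of 10 fatty acid genes were positive. The medians were -0.51, 0.04, -0.24 and 0.58 in that order. No member had tissues that did not overlap, and 0.0271% of all genes tested had.

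The members nearest to a difference lay at different points of the pathway. Srebf2 had a log2 fold change of 2.07 ± 0.82 (SE, edgeR adjusted p = 0.355), with the higher value in pancreas for 7 of 9 title numbers found in both tissues; the labels do not say that a number marks 1 mouse. Stard4 had 2.61 ± 1.06 (adjusted p = 0.376), with pancreas libraries from 0.272 to 137 CPM around a median of 6.84 and blood libraries from 0.102 to 19.2 CPM around 0.927. Acly had 1.42 ± 0.72 (adjusted p = 0.512), and 0.32 at the least when 1 library was left out (Sample_133P8). In the other direction, Dhcr7, the last enzyme of the pathway to cholesterol, had -2.94 ± 1.32 (adjusted p = 0.450). Its pancreas libraries ran from 0.129 to 24.3 CPM around a median of 1.34, and its blood libraries from 1.09 to 58.7 CPM around 25.5. Fdft1 had -1.95 ± 0.91 (adjusted p = 0.474) and Abcg1 -1.36 ± 0.70 (adjusted p = 0.531); Abcg1 was higher in pancreas for 1 of 9 title numbers. With DESeq2 on the same genes, 4 of 38 members were called (Srebf2, Stard4 and Fasn higher, Dhcr7 lower), where it called 4.33% of all genes.

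**Figure D4:**
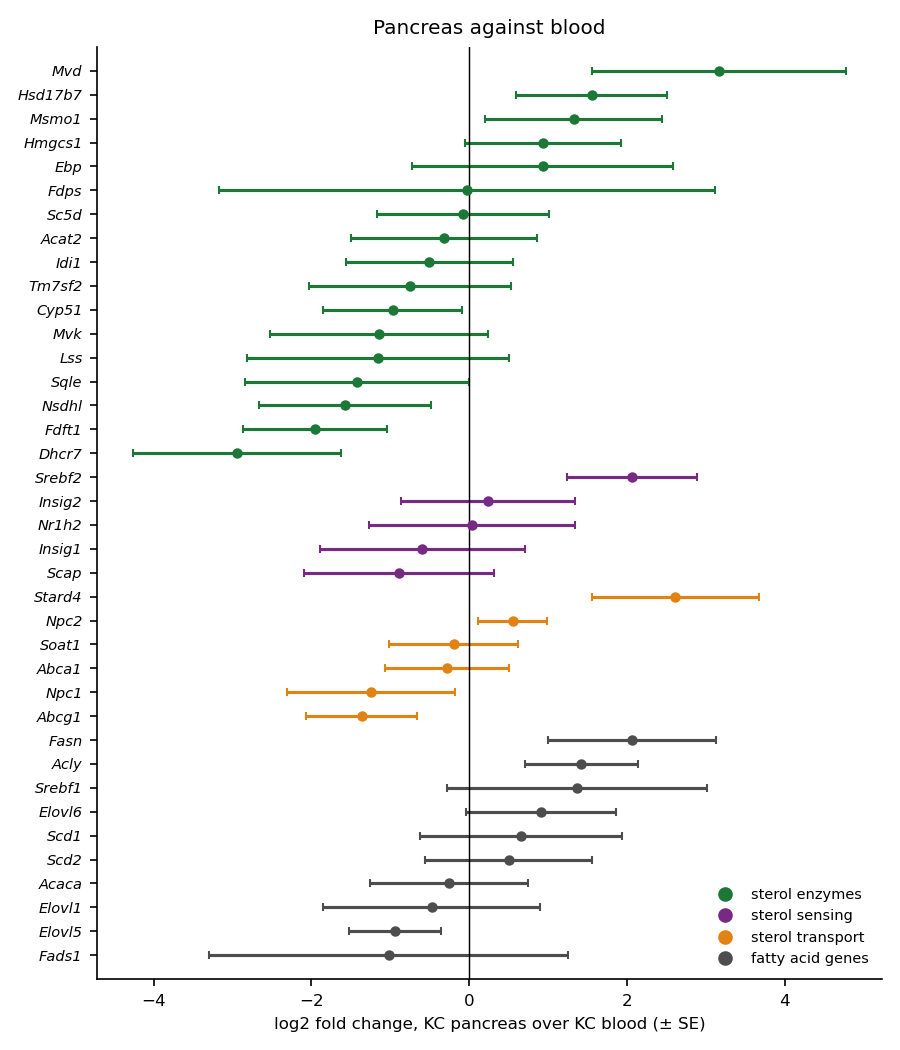
Log2 fold change of KC pancreas over KC blood (horizontal axis) for the 38 members tested, with bars of 1 SE, coloured by role and ordered within each role. Srebf2 (2.07), Stard4 (2.61) and Fasn (2.06) lie to the right of 0 and Dhcr7 (-2.94) and Fdft1 (-1.95) to the left, and none passed the adjusted threshold.

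Other RNAs moved with the tissue. The summed level of 10 immediate early and heat shock genes, which rise when tissue is dissociated, did not overlap. It was 277 to 2564 CPM in KC pancreas and 69.0 to 264 CPM in KC blood. Egr1 and Dusp1 had the highest medians in pancreas, 215 and 243 CPM. Ier2 alone of the 10 had a lower median in pancreas than in blood, 12.7 against 22.4 CPM, and median Atf3 was below 1 CPM in both. The 13 acinar markers summed to 0.103 to 8313 CPM and 0.0896 to 69.6 CPM, with Amy2a5 at 0 in every library, and the 8 platelet markers to 1.89 to 94.3 CPM and 40.3 to 294 CPM. Their part in the lipid gene differences was not tested. Within sets 1 and 2 the fold changes were 3.30 and 1.58 for Srebf2, 4.03 and 2.11 for Stard4, 2.43 and 0.40 for Acly, -3.43 and -2.63 for Dhcr7, -1.82 and -1.33 for Fdft1 and -2.51 and -0.26 for Abcg1. Directions were the same in both sets, and 0 members were called in either. Of 8 adipocyte markers, a cell type rich in the fatty acid arm, Adipoq, Plin1, Cidec and Lep had no count in any library, and the highest was Lpl at 69.4 CPM in Sample_302P8.

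The next question was whether the genes followed age in KC pancreas, where lesions progress with time. In the 12 libraries 0 of 35 members tested were called, where edgeR called 0.293% of 9555 genes. The median slope was -0.32 per 10 weeks on the log2 scale, beside -0.04 for all genes, and 24 of 35 members had negative slopes. Positive slopes made up 31.4% of members and 47.5% of all genes. DESeq2 called 0 of 35 members and 4.42% of all genes. With edgeR 1 member was at an unadjusted p below 0.05, against 8.95% of genes. It was Lss, lanosterol synthase, with -1.88 ± 0.74 per 10 weeks (SE, edgeR adjusted p = 0.396). Lss was at 12.4, 23.4 and 129 CPM in the 4-week libraries and at 1.89 and 0.315 CPM at 30 weeks. In between it was at 0.657 and 21 CPM at 9 weeks, 0.332, 0.543 and 0.775 CPM at 13 weeks, and 1.65 and 13.6 CPM at 20 weeks. The 4-week libraries thus overlapped those of 9 and 20 weeks but not those of 13 and 30. Lss was picked for its small p, and how many other genes separate these few libraries in this way was not counted. The slope was -6.46 within set 1 (adjusted p = 0.207) and -1.22 within set 2 (adjusted p = 0.999). Markers of other pancreatic cells also differed between ages in the same libraries, but the acinar markers did not fall steadily. The 13 acinar markers summed to 1469 to 8313 CPM at 4 weeks and 85.0 to 484 CPM at 13 weeks, the ages in set 1. In set 2 they summed to 0.131 and 0.458 CPM at 9 weeks, 0.136 and 0.103 CPM at 20 weeks, and 0.353 and 59.0 CPM at 30 weeks. WT pancreas, in set 1, had 3444 CPM at 9 weeks and 921 CPM at 30 weeks. The 7 fibroblast markers summed to 6.67 to 546 CPM at 4 weeks and 0 to 14.8 CPM later. Their part in the slopes was not tested. Fdft1 had a slope of -1.48 ± 0.79 (adjusted p = 0.623) and Srebf1 -1.94 ± 1.07 (0.646). The slope of Srebf1 turned positive in set 1 alone (1.01). The positive slopes nearest to a difference were Abca1 (0.52 ± 0.47, adjusted p = 0.880), Msmo1 (0.62 ± 0.68, 0.908) and Nsdhl (0.72 ± 0.98, 0.940). That of Abca1 turned negative without Sample_302P8 (-0.31) and that of Nsdhl without Sample_204P8 (-1.45).

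In KC blood, the same trend was fitted to 9 libraries. Again 0 of 34 members tested were called, and edgeR called 0% of 9933 genes. At an unadjusted p below 0.05 there were 8 of 34 members, 5 with negative and 3 with positive slopes, against 8.76% of all genes. Fdft1 had the steepest slope, -2.81 ± 0.69 per 10 weeks on the log2 scale (SE, edgeR adjusted p = 0.175). Acat2, the thiolase that starts the pathway, had -2.15 ± 0.67 (adjusted p = 0.400), and Scap -2.01 ± 0.73 (0.471). Scd2 had 1.70 ± 0.65 (0.492), with 0.545 and 0.720 CPM at 4 weeks and 120 and 175 CPM at 30 weeks. Ebp, a sterol isomerase, had 1.69 ± 0.76 (0.531), with 0.182 and 0.412 CPM at 4 weeks and 21.8 and 36.9 CPM at 30 weeks. Lss had 1.88 ± 0.86 (0.538), and its 30-week blood libraries had 0.417 and 87.1 CPM. Among the sterol enzymes 6 of 14 slopes were positive (42.9%, against 43.9% of all genes), with a median of -0.35 beside -0.12 for all genes. Within set 2 the slopes kept these signs, at -2.48 for Fdft1, -1.18 for Acat2, -1.61 for Scap, 1.14 for Scd2, 1.18 for Ebp and 1.24 for Lss (adjusted p = 0.999 for each). Set 1 held 3 KC blood libraries, and gave -5.82 for Fdft1, -7.68 for Acat2 and -6.11 for Scap (adjusted p from 0.678 to 0.741), while Scd2, Ebp and Lss had too few counts there. DESeq2 called 3 of 34 members (Fdft1, Acat2 and Scap, all lower with age), where it called 3.17% of all genes.

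The difference between the trends was tested itself in the 21 KC libraries. It was called for 0 of 38 members, and edgeR called 0.0543% of 11059 genes. At an unadjusted p below 0.05 there were 3 of 38 members, all with negative differences, against 8.33% of genes. Lss came nearest: its slope in pancreas was lower than that in blood by -3.74 ± 1.17 per 10 weeks (SE, log2, edgeR adjusted p = 0.257), and the value lay between -4.25 and -2.83 with each library left out in turn. Within sets 1 and 2 it was -6.63 and -2.43 (adjusted p = 0.511 and 1.0). DESeq2 called Lss alone of the 38 members, where it called 2.15% of all genes. The next negative differences were Acaca (-2.44 ± 1.03, adjusted p = 0.490) and Srebf1 (-2.94 ± 1.36, 0.543), and the positive ones Scap (1.89 ± 0.95, 0.601), Elovl6 (1.56 ± 0.80, 0.620) and Mvk (2.79 ± 1.48, 0.638). Acaca had 48.6, 129 and 145 CPM in the 4-week pancreas libraries and 0.909 and 1.13 CPM in the 4-week blood libraries. At 30 weeks it had 3.62 and 27.8 CPM in pancreas and 33.4 and 63.7 CPM in blood. Within sets 1 and 2 the difference for Acaca was -5.29 and -0.95. Srebf1 turned positive in set 1 alone (0.51), and Mvk without Sample_302P8 turned negative (-0.18).

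Fdft1 (chr14:63145150-63179578 on GRCm38) commits farnesyl diphosphate to sterols and had the smallest p of the members for age in KC blood and the second smallest in KC pancreas. In KC blood it was at 160 and 198 CPM at 4 weeks, 50.9 CPM at 9 weeks, 3.26, 5.54 and 77.2 CPM at 13 weeks, 0.237 CPM at 20 weeks, and 0.662 and 3.62 CPM at 30 weeks. In KC pancreas it was at 16.5, 31.2 and 84.2 CPM at 4 weeks, 0.789 and 7.50 CPM at 9 weeks, 2.71, 2.71 and 6.41 CPM at 13 weeks, 1.24 and 31.3 CPM at 20 weeks, and 0.589 and 0.630 CPM at 30 weeks. All 5 KC libraries of 4 weeks lay above all 4 of 30 weeks. Fdft1 was picked for its small p, and how many other genes separate these libraries in this way was not counted. The libraries of 4 weeks all lay in set 1 and those of 30 weeks all outside it, so age and set cannot be told apart here. The summed acinar markers also differed, at 67.1 to 8313 CPM in those 5 libraries and 0.139 to 59.0 CPM in those 4. Blood libraries of set 1 at later ages had 63.7 CPM (Sample_131B8, 13 weeks) and 68.6 CPM (Sample_W3B8, 30 weeks). The part of these markers in the Fdft1 levels was not tested. WT pancreas had 48.2 CPM at 9 weeks and 7.26 CPM at 30 weeks, and WT blood 6.82 CPM at 30 weeks.

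A common trend over both KC tissues, fitted after these values had been seen, gave Fdft1 a slope of -2.20 ± 0.57 per 10 weeks on the log2 scale (SE, edgeR adjusted p = 0.0889). With edgeR 0 of 35 members were called, against 0.492% of all 9959 genes, and 2 of 35 were at an unadjusted p below 0.05, against 9.66% of genes. DESeq2 called Fdft1 (adjusted p = 5.86e-05) and Acat2 (edgeR slope -1.54 ± 0.69, adjusted p = 0.457; DESeq2 adjusted p = 0.0273), and 4.09% of all genes. The edgeR call for Fdft1 turned on single libraries: without Sample_204P8, a 20-week pancreas library at 31.3 CPM, its adjusted p was 0.00870, and without Sample_94P8 it was 0.0493. The slope stayed between -2.54 and -2.02 with each library left out in turn. Within set 1, which spans 4 to 13 weeks, it was -3.82 (adjusted p = 0.326), and within set 2, which spans 9 to 30 weeks, -2.17 (adjusted p = 0.915). With the set as a term it was -2.59 (adjusted p = 0.495). Without the filter on low counts edgeR called Fdft1 here and in KC blood alone, and Fads2, which had at most 1.18 CPM, here and in KC pancreas alone. That fit called 4.99% of all genes here, 0.705% in KC blood and 4.76% in KC pancreas. The negative direction of Fdft1 was thus present in each set, and the call was not. Exons of Fdft1 share 774 bases (18.3% of its exon length) with Ctsb, a cathepsin gene on the other strand, and strand use in the counting is not stated. Ctsb had its own slope of -0.38 ± 0.31 per 10 weeks (edgeR adjusted p = 0.752) over the same libraries.

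**Figure D5:**
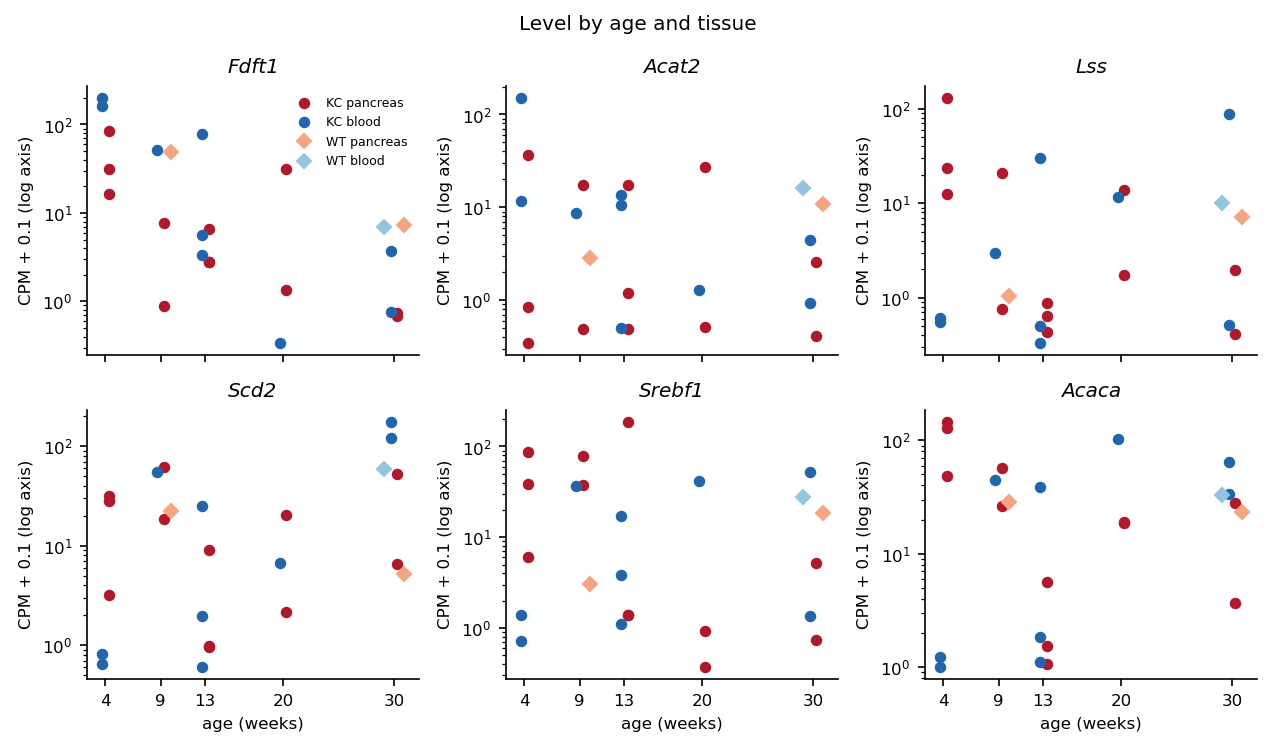
Level as CPM + 0.1 on a log axis against age in weeks for Fdft1, Acat2, Lss, Scd2, Srebf1 and Acaca, with 1 point per library and the 4 groups marked. Fdft1 lies at 16.5 to 198 CPM in the 4-week KC libraries and at 0.589 to 3.62 CPM in the 30-week ones, while Lss and Acaca start high in pancreas and low in blood at 4 weeks.

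KC pancreas was compared with WT pancreas with age as a term, on 12 against 2 libraries. No member was called among 37 tested, where edgeR called 0.194% of 10829 genes, and the median was -0.55 beside 0.10 for all genes. With edgeR 1 member was at an unadjusted p below 0.05, against 5.03% of genes: Fdft1, with -3.76 ± 1.65 on the log2 scale (edgeR adjusted p = 0.957). Elovl1, an elongase of saturated chains, had -2.64 ± 1.69 and Nr1h2 -3.80 ± 2.83, and Hsd17b7 3.04 ± 2.20, Elovl6 2.72 ± 2.05 and Cyp51 2.65 ± 2.17, with adjusted p of 0.957 for each. Nr1h2 turned to 1.29 without the WT library Sample_W3P8, so its sign rested on 1 library. Both WT libraries lay in set 1 and the KC libraries of 9 and 30 weeks in set 2, so genotype and set cannot be told apart here. DESeq2 called 0 of 37 members and 1.51% of all genes.

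Of the other genes of these pathways, 0 of 21 tested sterol genes and 0 of 18 tested fatty acid genes were called between tissues. They numbered 24 and 26 in all and took in receptors, SREBP proteases, NF-Y subunits and further elongases and desaturases. At an unadjusted p below 0.05 there were 3 and 2 of them, all lower in pancreas. None was called for the age trend in KC pancreas (19 and 15 tested; 2 and 1 at an unadjusted p below 0.05), in KC blood (20 and 15; 3 and 0), or between the genotypes (21 and 18; 2 and 1) with edgeR.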

How the data were processed

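Each file held the read count per gene symbol that the authors deposited, with no normalisation, for 24421 genes, beside 5 tallies of unassigned reads. The submitters' processing notes name TopHat, SAMtools, HTSeq, DESeq and mm10. Versions, annotation and strand use are not given in the sources used here, so reads of overlapping genes cannot be told apart. Tallies were left out of library sizes; genes took 11.7% to 32.5% of tallied reads.

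Tests used edgeR 4.0.16 (quasi-likelihood F-test, two-sided, TMM scaling, filterByExpr with a minimum count of 10, Benjamini-Hochberg over all genes tested, called at 0.05) in R 4.3.3. The code was run on simulated counts with much less spread than these libraries had. That run therefore does not show the power or the error rate at the spread of these data. Age was a factor between tissues and genotypes and a number, per 10 weeks, in trends. The 2 sets of libraries, whose nature is unknown, came from 95 genes at 100 CPM or more in 1 library and at most 5% of that elsewhere. Alternatives were DESeq2 1.42.0, other scaling, no filter, sets, and left-out libraries. Exon lengths and positions came from GENCODE for GRCm38.

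The members and all lists were chosen with earlier results of these data known. Given in every group were the 3 members of each role with the highest mean CPM, and with statistics the 3 per direction with the smallest p in each comparison. The common age trend, fits within sets and fits without the 3 KC libraries with the most genes were added after seeing the data.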

Additional observations from a re-analysis of the deposited data

Results flagged for a closer look

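In KC blood, 3 of 16 groups of values tested held a library far from the others by Dixon's criterion. Its rate of about 1 in 20 holds for normally distributed values. CPM here were skewed, so 3 of 16 cannot be read as an excess. KC pancreas was not tested in this way. Nsdhl was at 286 CPM in Sample_43B8, where the median of the 9 libraries was 20.7 CPM. Insig1 was at 74.3 CPM in Sample_205B8, with a median of 16.1 CPM. Elovl5 was at 957 CPM in Sample_131B8, with a median of 140 CPM. The cause of these values was not tested.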

How the results depend on the processing

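The count of called members was 0 for the main setting of each comparison. DESeq2 gave 4 between the tissues, 3 for age in KC blood, 1 for the difference of trends and 2 for age over both tissues, and 0 in KC pancreas and between genotypes. Without the filter on low counts it was 1 for age in KC pancreas (Fads2, a gene that never reached 10 CPM), 1 in KC blood (Fdft1) and 2 over both tissues. With 1 library left out it ranged from 0 to 1 over both tissues and stayed at 0 elsewhere. Signs turned for these members: Abca1 in KC pancreas (-1.58 within set 1; -0.31 to 0.83 with libraries left out), Nsdhl (-0.84 with the set as a term, -0.20 and -1.73 within sets 1 and 2; -1.45 to 1.20), Srebf1 (1.01 within set 1), and, for the difference of trends, Mvk (-0.18 to 3.58) and Srebf1 (0.51 within set 1). Nr1h2 against WT ranged from -5.83 to 1.29. The cause was not tested. Of 502 values with 1 library left out, 496 kept their direction and side of the threshold, and so did 198 of 215 under other settings. All 8 summed levels of the KC tissues moved by less than 1 SD when Rn45s and Lars2 were taken out of the library totals.

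A replicate block by title number gave 0 called members between the tissues, and called 14 of 13244 genes tested, where the fit with no block called 10 of 11059; the tested genes changed too, so the counts do not show the block's effect alone. The deviations of libraries with the same number had correlations of -0.0561 to 0.00912 (7 pairs, not all independent). With so few libraries per tissue and age and so wide a spread, these values cannot show whether the number marks a shared mouse. Genotype could not be fitted with the set as a term or within sets. The biological coefficient of variation was 1.24 between the tissues, and members below 10 CPM rest on few counts.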
